A study of Mus musculus with 12 samples.

Results

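Myc and the ribosome biogenesis genes are 34 genes of mouse macrophages that were read as rows of one expression table. They were chosen by a fixed list of names, and 34 of the 43278 gene symbols in the table belong to it. The cells were thioglycolate-elicited peritoneal macrophages (PMφs) from wild-type C57BL/6J mice of 8 to 12 weeks, with cells of male and female littermates, up to 10 mice, pooled within an experiment and then divided among 4 groups of 3 libraries. The control group received neither agent. The oxLDL group accumulated human medium-oxidized low-density lipoprotein at 100 µg/ml for 24 h, the LPS group was stimulated with ultrapure LPS at 10 ng/ml, and the oxLDL+LPS group received both. The time with LPS was not given for these libraries in the sources used here, and no group carried a genetic change. Libraries with the same replicate number were treated as coming from the same pool of cells.

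Myc is a transcription factor that binds DNA as a pair with Max, and Mxd1 competes with Myc for Max and represses the same sites. Many genes for making ribosomes are known targets of Myc. A ribosome begins in the nucleolus, where RNA polymerase I copies the ribosomal RNA precursor, small nucleolar ribonucleoproteins (snoRNPs) guide its chemical modification, and 2 large assemblies fold and cut it into the small and the large subunit. The list holds 3 genes of the Myc group, 6 genes of the snoRNPs, 2 RNA polymerase I subunits, 7 genes of the small-subunit processome, 12 genes of large-subunit assembly and 4 nucleolar proteins with several functions.

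All 34 genes were in the table and passed the filter on low values in each fit. Each value is a normalized count, which is a read count multiplied by 1 factor for its library and rounded. By the factor recovered from the values, the libraries hold 16.7 to 26.2 M reads. Changes are differences of log2(normalized count + 1), given with their standard error (SE), and a gene was called at a Benjamini-Hochberg adjusted p under 0.1 over all genes tested with limma. The summed normalized counts were 17.2 to 17.7 M in the control and 17.4 M in the oxLDL libraries, but 22.6 to 26.4 M in the LPS and 22.1 to 23.3 M in the oxLDL+LPS libraries. Scaling to equal library totals therefore lowered the median log2 change of all genes by LPS from 0.00 to -0.48, and in the presence of oxLDL from -0.02 to -0.40. The 7 of 8 macrophage markers in the table summed to 226714 to 318793 in a library and the 4 T cell markers to 0 to 5. Mesothelial and fibroblast markers summed to 3865 to 24592, with replicate number 3 lowest in each group. The 6 markers of proliferating cells summed to 756 to 1333 in control and 1763 to 2539 in LPS libraries, a difference in which Mki67 alone was higher (169 to 362 against 1046 to 1892). The part of these markers in the results below was not tested, and in such bulk samples fewer cells of a type and less RNA per cell cannot be told apart.

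The DNA sequence that Myc and Max bind is the E-box CACGTG. In RefSeq windows of GRCm38.p6 that run from 250 bases before to 50 bases after a start site, 29 of the 34 genes had a promoter and 6 of these held CACGTG, which reads the same on both strands. They are shown because 5 of the 6 were called higher with LPS, as were 19 of the 29 genes with a promoter and 31.4% of all genes tested. With equal library totals Wdr43, Max and Mybbp1a were called higher, Nop2 and Utp20 were not called and Pes1 was called lower. In that scaling 17.0% of all genes were called higher and 55.3% lower. A link between the motif and the LPS change was not tested. The motif stands in capitals, and each line runs 5′ to 3′ on the strand of the gene.
Wdr43 (chr17:71616220-71616249, plus strand): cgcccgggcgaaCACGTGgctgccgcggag
Max (chr12:76962234-76962263, minus strand): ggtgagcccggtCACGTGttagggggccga
Mybbp1a (chr11:72441355-72441376, plus strand): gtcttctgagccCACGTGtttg
Nop2 (chr6:125131811-125131840, plus strand): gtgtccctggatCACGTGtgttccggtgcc
Utp20 (chr10:88826765-88826789, minus strand): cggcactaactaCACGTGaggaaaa
Pes1 (chr11:3963965-3963994, plus strand): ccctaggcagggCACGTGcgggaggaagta
Positions of the E-boxes are counted from the RefSeq start sites of the windows. For Max and Wdr43 these differ from the starts of the genes by the GENCODE positions given below. The E-box of Max spans the start site. Those of Pes1, Wdr43, Utp20 and Mybbp1a begin 3, 18, 38 and 41 bases into the transcript, and that of Nop2 ends 55 bases before it. CACGTG was present in 18.2% of the 33 promoter windows of these genes and in 7.15% of all 32851 windows. Of the same windows, 3.03% of the genes' own and 4.51% of all held an NF-κB consensus on either strand, and Rcl1 was the gene with one. The windows of Myc, Bop1, Fbl, Npm1 and Rrp12 were not analysed here.

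In control PMφs, levels per kilobase of exon spanned a wide range. The length counts all annotated exons of a gene, whichever transcript holds them. It was 11955 bases for Wdr12, 10758 for Nop58, 10188 for Ncl and 7705 for Rrp1b, but 2665 for Npm1, so the order rests partly on it. Without division by length, Ncl had 5117 ± 534 normalized counts and Npm1 4484 ± 179 (SD, n = 3). Npm1, a nucleolar chaperone, had the highest at 1683 ± 67.2 normalized counts per kilobase (SD, n = 3). Ncl, which encodes nucleolin, followed at 502 ± 52.4 and Noc2l, a large-subunit factor, at 474 ± 20.7, and these 2 did not differ beyond their spread. Max stood at 409 ± 30.7 per kilobase against 68.8 ± 15.4 for Myc and 47.6 ± 6.3 for Mxd1, so Max was the most abundant of the 3 per length before any stimulation. The lowest were Wdr12 at 27.8 ± 4.3, Rrp1b at 32.9 ± 2.9 and Nop58 at 37.1 ± 5.4 per kilobase. Their SD intervals overlapped, though Nop58 lay above Wdr12 in each control library. Their order was not tested.

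LPS was compared with control to ask how stimulation alters these genes in PMφs without accumulated lipid. The transcripts of Mxd1, Wdr43, Max and Rcl1 rose 3.34- to 5.01-fold, and Rrp9 led the rest at 1.84-fold. In all, 23 of the 34 genes were called higher (67.6%) and 1 lower (2.94%), beside 31.4% higher and 30.3% lower among the 13023 genes tested. With equal library totals the 34 genes split into 9 higher and 10 lower, beside 17.0% higher and 55.3% lower among all genes tested. The 9 that stayed higher were Max, Mxd1, Wdr43, Rcl1, Noc4l, Rrp9, Bop1, Ddx21 and Mybbp1a. The median log2 change was 0.40 over the 34 genes and 0.00 over all genes tested, and with equal totals it was -0.08 and -0.48, so that relative to the median of all genes they were 0.41 higher as deposited and 0.40 higher with equal totals. The 3 LPS libraries lay above all 3 control libraries for 21 of the 34 genes (61.8%), beside 32.1% of all genes. The share of all called genes that were higher moved from 50.9% to 23.5% between the 2 scalings.

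Myc (chr15:61985391-61990374, GRCm38) showed a modest and variable response. Its normalized counts were 207, 215 and 139 in control and 361, 342 and 194 in LPS libraries, in the order of replicate numbers. The third LPS library lay below the first 2 control libraries, so the groups overlapped, but each LPS library was above the control library of its own number. The log2 change was 0.65 ± 0.28 (limma adjusted p = 0.081), and with the replicate number as a block it was 0.65 ± 0.12 (adjusted p = 0.0031). Leaving out LPS replicate 1, LPS replicate 2, control replicate 1 or control replicate 3 ended the call without the block, with adjusted p from 0.107 to 0.225. With equal totals the log2 change was 0.17 and was not called.

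Max and Mxd1 changed more. Max (chr12:76937269-76962201) had 1369, 1588 and 1454 normalized counts in control and 4293, 6112 and 5655 with LPS, a log2 change of 1.85 ± 0.14 (limma adjusted p = 2.7e-05). Mxd1 (chr6:86647042-86669161) went from 294, 383 and 332 in control to 2505, 934 and 2026 with LPS, a log2 change of 2.33 ± 0.33 (adjusted p = 0.00070). In neither gene did the groups overlap, though the second LPS library of Mxd1 lay far below the other 2. The ratio of Mxd1 to Myc within a library was 1.42, 1.78 and 2.39 in control and 6.94, 2.73 and 10.4 with LPS. Scaling by 1 factor per library cannot alter it, but quantile normalization can. The groups did not overlap (exact two-sided permutation p = 0.1, the smallest that 3 against 3 libraries allow), and this ratio, like the other 2 given below, was chosen after its values were seen.

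**Figure D1:**
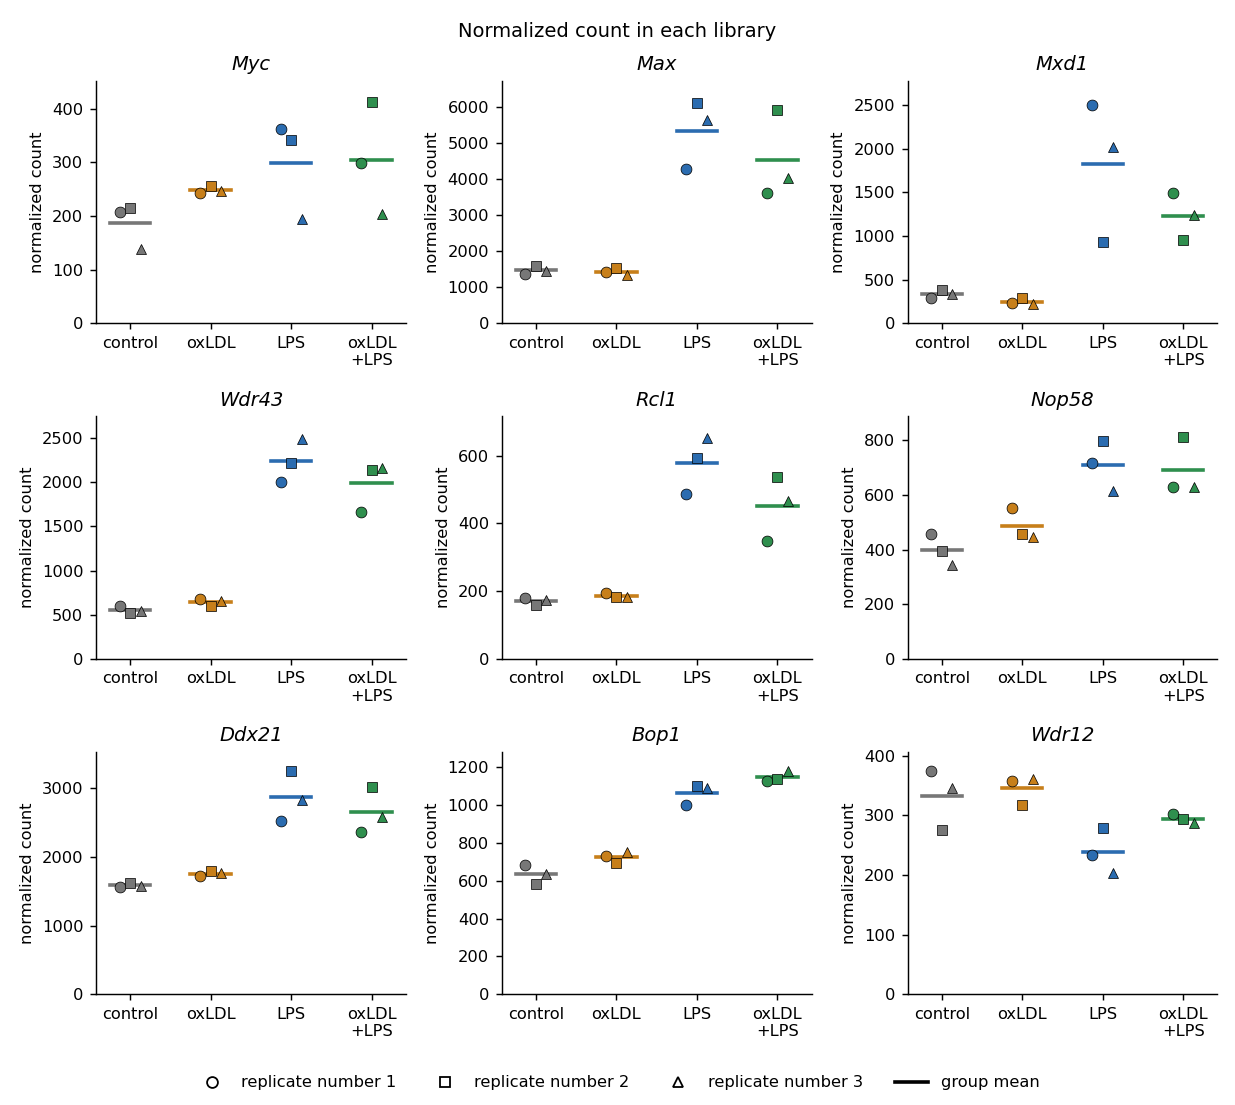
Normalized count (vertical axis, linear from 0) of 9 genes in each of the 12 libraries, by group on the horizontal axis. Symbols mark the replicate number and bars the group mean of 3 libraries. The LPS libraries of Wdr43 lie between 2001 and 2491 and its control libraries between 515 and 602, whereas the LPS libraries of Wdr12 (203 to 279) lie mostly below control (275 to 375).

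The small-subunit processome, which folds and cuts the precursor of the small subunit, held the 2 largest changes outside the Myc group. Wdr43 (chr17:71615895-71659031), a processome subunit, had 602, 515 and 542 normalized counts in control and 2001, 2219 and 2491 with LPS, a log2 change of 2.01 ± 0.11 (limma adjusted p = 5.1e-06). Rcl1 (chr19:29101375-29143929), whose yeast counterpart is an endonuclease of the processome, had 180, 159 and 175 in control and 488, 594 and 651 with LPS, a log2 change of 1.74 ± 0.14 (adjusted p = 3.2e-05). Both were separated from control by more than the whole range of their 3 replicates and stayed called with equal totals, at log2 changes of 1.53 and 1.26. Noc4l rose by 0.86 ± 0.14 and Utp20 by 0.57 ± 0.12 on the log2 scale, and with equal totals Utp20 was at 0.09 and not called (adjusted p = 0.501). Wdr75 was called at 0.24 ± 0.11, and with equal totals it was called lower at -0.24. Its call was lost when any library but LPS replicate 1 was left out (adjusted p = 0.123 to 0.252). Nop14 (0.20 ± 0.15) and Rrp12 (-0.04 ± 0.13) did not pass the test, and with equal totals Rrp12 was called lower at -0.52.

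Among the snoRNP genes, 5 of 6 were called higher. Rrp9, which binds the U3 snoRNA, rose by 0.88 ± 0.11 on the log2 scale, and the core box C/D proteins Nop58 and Nop56 rose by 0.83 ± 0.15 and 0.58 ± 0.09. With equal totals Nop58 stood at 0.35 (adjusted p = 0.115) and Nop56 at 0.10 (adjusted p = 0.472), neither of them called. The methyltransferase Fbl, at 0.33 ± 0.09, and the snoRNP chaperone Nolc1, at 0.39 ± 0.14, were called as well but turned to -0.15 and -0.09 with equal totals. The call of Nolc1 was also lost without LPS replicate 1, LPS replicate 2 or control replicate 3 (adjusted p = 0.101 to 0.146). Dkc1, the pseudouridine synthase of the other class of snoRNP (box H/ACA), did not pass the test at -0.25 ± 0.19 and was called lower with equal totals at -0.73. The ratio of Nop58 to Dkc1 was 1.74, 1.65 and 1.65 in control and 2.95, 3.92 and 3.88 with LPS, again without overlap (exact two-sided permutation p = 0.1).

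Large-subunit assembly was divided. Bop1 (chr15:76452989-76477277), Pes1 and Wdr12 (chr1:60069785-60098645) encode the 3 proteins of one complex, PeBoW, yet as deposited Bop1 rose, Pes1 did not pass the test and Wdr12 fell. Bop1 had 681, 585 and 636 normalized counts in control and 1003, 1100 and 1092 with LPS, a log2 change of 0.75 ± 0.10 (limma adjusted p = 0.00041). Pes1 had 1179, 1157 and 1131 in control and 1103, 1328 and 1199 with LPS, and with equal totals it was called lower at -0.42 (adjusted p = 0.0056). Wdr12 had 375, 275 and 346 in control and 234, 279 and 203 with LPS, a log2 change of -0.47 ± 0.17 (adjusted p = 0.046). The second pool showed no fall of Wdr12, and its call was lost without LPS replicate 3, control replicate 1 or control replicate 3 (adjusted p = 0.124 to 0.151). The ratio of Bop1 to Wdr12 was 1.82, 2.13 and 1.84 in control and 4.29, 3.94 and 5.38 with LPS, so the groups did not overlap (exact two-sided permutation p = 0.1).

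Noc2l (0.57 ± 0.09), Wdr74 (0.55 ± 0.13), the RNA methyltransferase Nop2 (0.42 ± 0.12) and the helicases Ddx18 (0.40 ± 0.10) and Ddx56 (0.33 ± 0.13) were called higher on the log2 scale, and none of the 5 was called with equal totals, where Noc2l was at 0.09 (adjusted p = 0.413) and Wdr74 at 0.06 (adjusted p = 0.609) while Nop2, Ddx18 and Ddx56 turned negative. The call of Ddx56 was lost when any library but LPS replicate 1 was left out (adjusted p = 0.118 to 0.177). Exons of Noc2l share 20.9% of their length with the opposite-strand gene Samd11, and whether the counting used strand is not given in the sources used here. Ppan, Gnl3, Nop16 and Rrp1b did not pass the test, at log2 changes from -0.37 to 0.14. The RNA polymerase I subunits Polr1a and Polr1b did not pass it either, at -0.21 ± 0.10 and -0.21 ± 0.12. With equal totals Polr1a, Polr1b, Gnl3, Nop16 and Rrp1b were called lower, at -0.44 to -0.85. With the replicate block Polr1a (adjusted p = 0.097) and Rrp1b (adjusted p = 0.054) were called lower, which gave 23 genes higher and 3 lower, beside 34.6% and 34.1% of all genes.

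All 4 nucleolar proteins with several functions were called higher. The RNA helicase Ddx21 had 1562, 1625 and 1574 normalized counts in control and 2528, 3248 and 2826 with LPS, a log2 change of 0.85 ± 0.11 (limma adjusted p = 0.00036). Mybbp1a had 1935, 1864 and 1801 in control and 2814, 3200 and 3050 with LPS, a log2 change of 0.69 ± 0.09 (adjusted p = 0.00034). Both were clear of control in each library and remained called with equal totals. Ncl had 5370, 5478 and 4504 in control and 6592, 8000 and 5295 with LPS, so its groups overlapped, and its log2 change of 0.36 ± 0.16 (adjusted p = 0.096) was no longer called when any library but LPS replicate 3 was left out (adjusted p = 0.126 to 0.265). Ncl and Npm1 (0.41 ± 0.11) turned negative both with equal totals and after quantile normalization. Npm1 is known to have pseudogenes, and how reads that match several places were counted is not given in the sources used here.

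**Figure D2:**
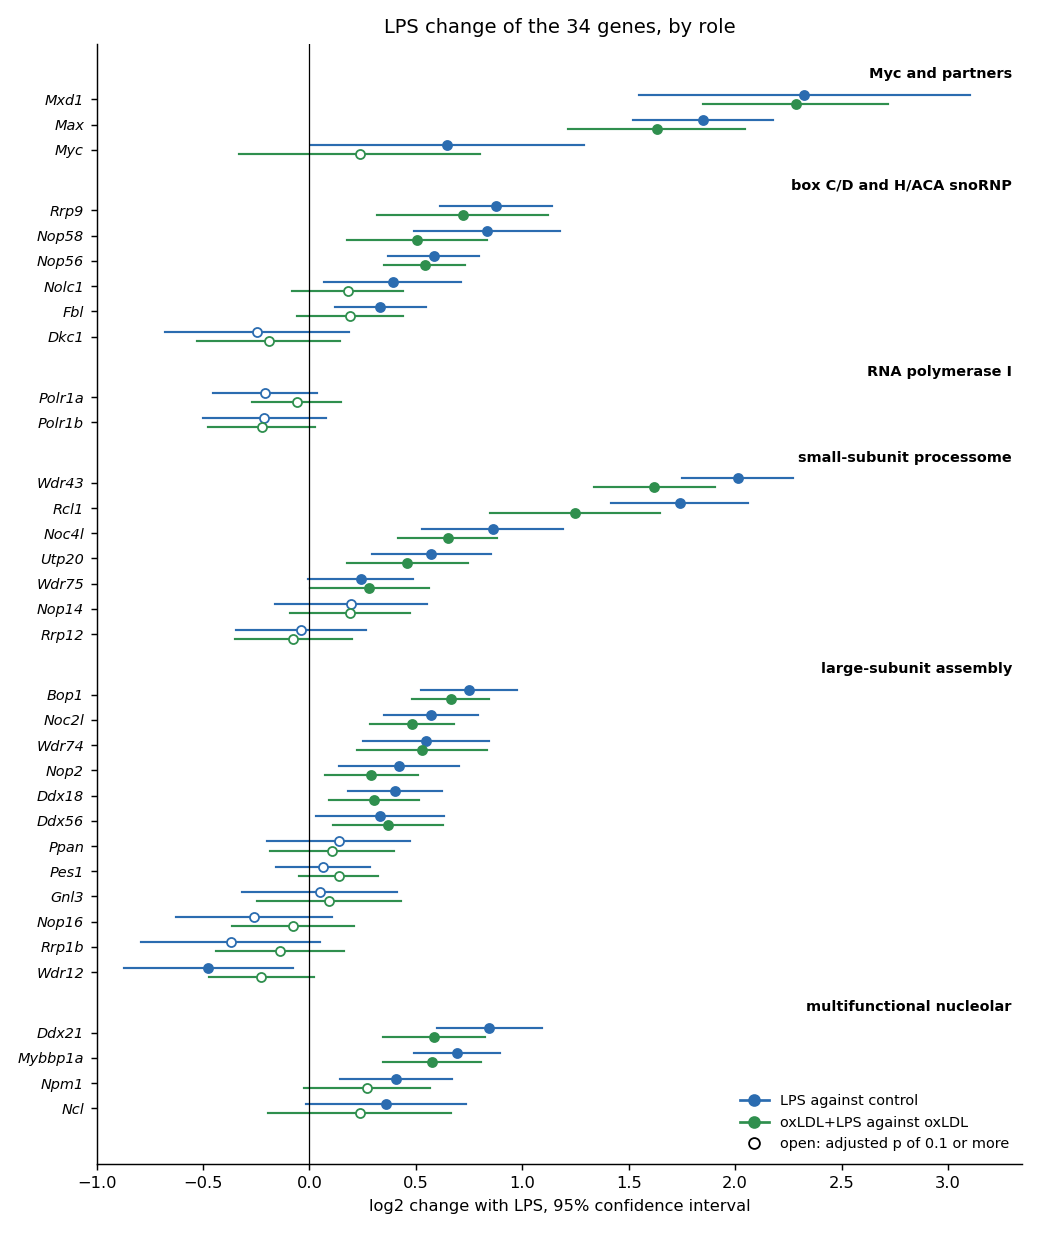
Log2 change by LPS (horizontal axis, lines give the 95% confidence interval) of the 34 genes by role, without oxLDL in blue and with oxLDL in green, in the deposited scaling. Filled points have an adjusted p under 0.1. The difference between the 2 changes is called for 0 of the 34 genes. Its median over them is -0.09, and 0.0046 with equal library totals (-0.01 and 0.08 over all genes). With equal library totals the genes split into 9 higher and 10 lower without oxLDL and 7 higher and 9 lower with oxLDL.

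The LPS response was then measured in PMφs with accumulated oxLDL, by comparing the oxLDL+LPS with the oxLDL libraries, none of which entered the comparison above, although the pools of cells were the same. Again Mxd1, Max, Wdr43 and Rcl1 led, at 2.37- to 4.87-fold. In all, 18 of the 34 genes were called higher (52.9%) and 0 lower, beside 28.2% higher and 26.3% lower among the 12900 genes tested. With equal totals 7 were higher and 9 lower, beside 15.9% and 51.3% of all genes tested, and the share of all called genes that were higher moved from 51.7% to 23.7%. The median was 0.29 over the 34 genes and -0.02 over all genes, and relative to the latter it was 0.30 in either scaling. The groups did not overlap, with LPS higher, for 20 of the 34 genes (58.8%), beside 29.6% of all genes.

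In the oxLDL and then the oxLDL+LPS libraries, Wdr43 had 672, 600 and 652 and then 1664, 2136 and 2159 normalized counts, a log2 change of 1.62 ± 0.12 (limma adjusted p = 4.3e-05). Max had 1419, 1525 and 1347 and then 3624, 5918 and 4042, a change of 1.63 ± 0.18 (adjusted p = 0.00027). Mxd1 had 234, 293 and 221 and then 1491, 952 and 1246, a change of 2.28 ± 0.19 (adjusted p = 6.7e-05). No library with LPS overlapped its group without LPS for any of these. Rcl1 had 193, 183 and 183 and then 347, 538 and 467, a change of 1.25 ± 0.17 (adjusted p = 0.00084). Bop1 had 731, 692 and 752 and then 1128, 1137 and 1180, a change of 0.66 ± 0.08 (adjusted p = 0.00040).
Wdr12 had 358, 317 and 361 and then 302, 294 and 288, and at -0.23 ± 0.10 it was called with the replicate block (adjusted p = 0.099) but not without it (adjusted p = 0.117). The ratio of Bop1 to Wdr12 was 2.04, 2.18 and 2.08 with oxLDL and 3.74, 3.87 and 4.10 with oxLDL+LPS, again without overlap (exact two-sided permutation p = 0.1).

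The same 18 genes were called higher in both LPS responses. Of all genes tested, 31.4% were called higher without oxLDL and 28.2% with it. How many of all genes were called in both was not examined, so the overlap is not read as a trait of these genes. Myc, Fbl, Nolc1, Ncl and Npm1 were called higher without oxLDL and not with it, and 0 genes the other way. Myc had 242, 256 and 246 normalized counts with oxLDL and 298, 412 and 203 with oxLDL+LPS, a log2 change of 0.24 ± 0.24 (limma adjusted p = 0.461) that was negative in the third pool. Ncl (adjusted p = 0.073) and Npm1 (adjusted p = 0.039) were called with oxLDL too once the replicate block was used, which gave 20 genes higher and 1 lower, beside 32.0% and 31.4% of all genes. The difference between the 2 LPS responses was itself tested over all 12 libraries: 0 of the 34 genes and 0% of the 13482 genes tested were called, with or without the block, while 418 genes without it and 967 with it had an unadjusted p under 0.05. The log2 change by LPS was lower with oxLDL in all 3 replicate numbers for 11 of the 34 genes (32.4%), beside 20.3% of all genes tested. Dkc1, Polr1a, Polr1b, Nop14, Rrp12, Nop16, Pes1, Ppan, Rrp1b and Gnl3 were called in neither response as deposited. With equal totals Dkc1, Polr1a, Polr1b, Rrp12, Nop16, Pes1 and Rrp1b were called lower in both, Gnl3 lower without oxLDL and Ppan lower with it. The call with oxLDL was lost for Wdr75 when any library but oxLDL replicate 3 was left out (adjusted p = 0.109 to 0.265) and for Nop2 without oxLDL replicate 2 (adjusted p = 0.122).

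**Figure D3:**
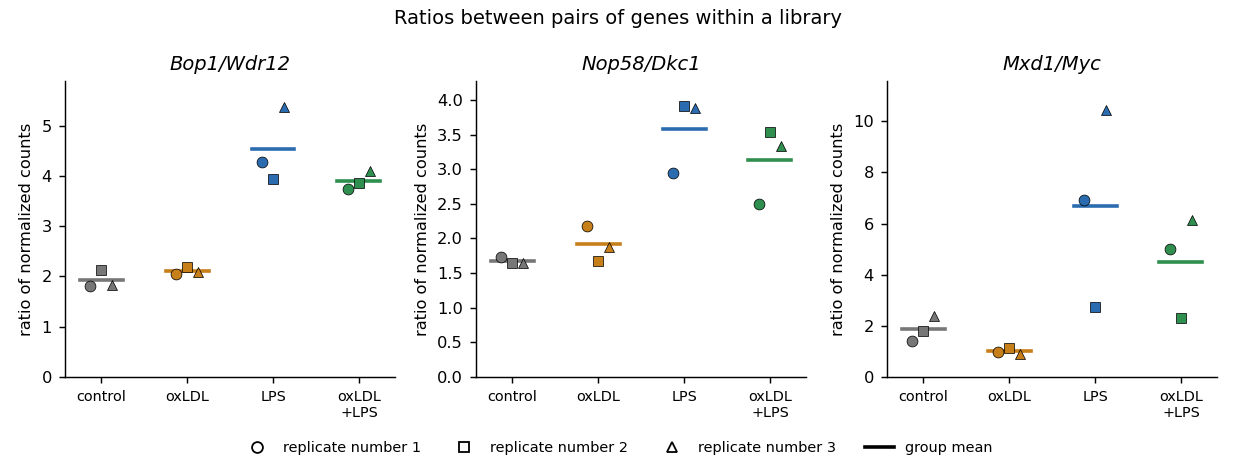
Ratio of the normalized counts of 2 genes within a library (vertical axis, linear from 0) for Bop1 to Wdr12, Nop58 to Dkc1 and Mxd1 to Myc, by group. Symbols mark the replicate number and bars the mean of 3 libraries. The ratio of Bop1 to Wdr12 is 1.82 to 2.18 without LPS and 3.74 to 5.38 with LPS.

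The accumulation of oxLDL without LPS was compared with control through the same genes. Differences were small. Without the block 0 of the 34 genes were called, as were 0% of the 12751 genes tested (381 genes had an unadjusted p under 0.05). With the replicate block 5 genes were called higher and 1 lower, beside 1.8% higher and 2.92% lower of all genes. Differences within a replicate number were higher in all 3 numbers for 21 of the 34 genes (61.8%), beside 17.5% of all genes tested. The 3 oxLDL libraries lay above all 3 control libraries for 13 of them (38.2%), beside 3.79% of all genes. These comparisons share the control libraries with the LPS response above, and each is given by its own values.

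Myc, at the normalized counts given above, had a log2 change of 0.43 ± 0.12 with oxLDL (limma with the block, adjusted p = 0.087). The 3 oxLDL libraries lay within 242 to 256 and above each control library, and the third control library, at 139, set the size of the change: without that pool it was 0.24. Mxd1 moved the other way, at -0.43 ± 0.08 (adjusted p = 0.018), with each oxLDL library below each control library. The ratio of Mxd1 to Myc was 0.97, 1.14 and 0.90 with oxLDL against 1.42 to 2.39 in control, without overlap (exact two-sided permutation p = 0.1).

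Nop58 had 459, 394 and 343 normalized counts in control and 551, 458 and 447 with oxLDL, a log2 change of 0.29 ± 0.06 (limma with the block, adjusted p = 0.043). Ddx18 had 522, 456 and 472 in control and 594, 562 and 531 with oxLDL, a change of 0.22 ± 0.06 (adjusted p = 0.089). Wdr43 and Mybbp1a, at the values given above and 2077, 2111 and 2097 for Mybbp1a with oxLDL, had changes of 0.21 ± 0.06 (adjusted p = 0.078) and 0.17 ± 0.05 (adjusted p = 0.085). The groups of Ddx18 and Mybbp1a did not overlap, and those of Nop58 and Wdr43 did, although each oxLDL library exceeded the control library of its number. Each of these 6 calls was lost when 1 or more of the replicate numbers was left out: number 2 for Mxd1, numbers 1 or 2 for Nop58, Wdr43, Ddx18 and Mybbp1a, and any of the 3 for Myc, with adjusted p from 0.124 to 0.453.

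**Figure D4:**
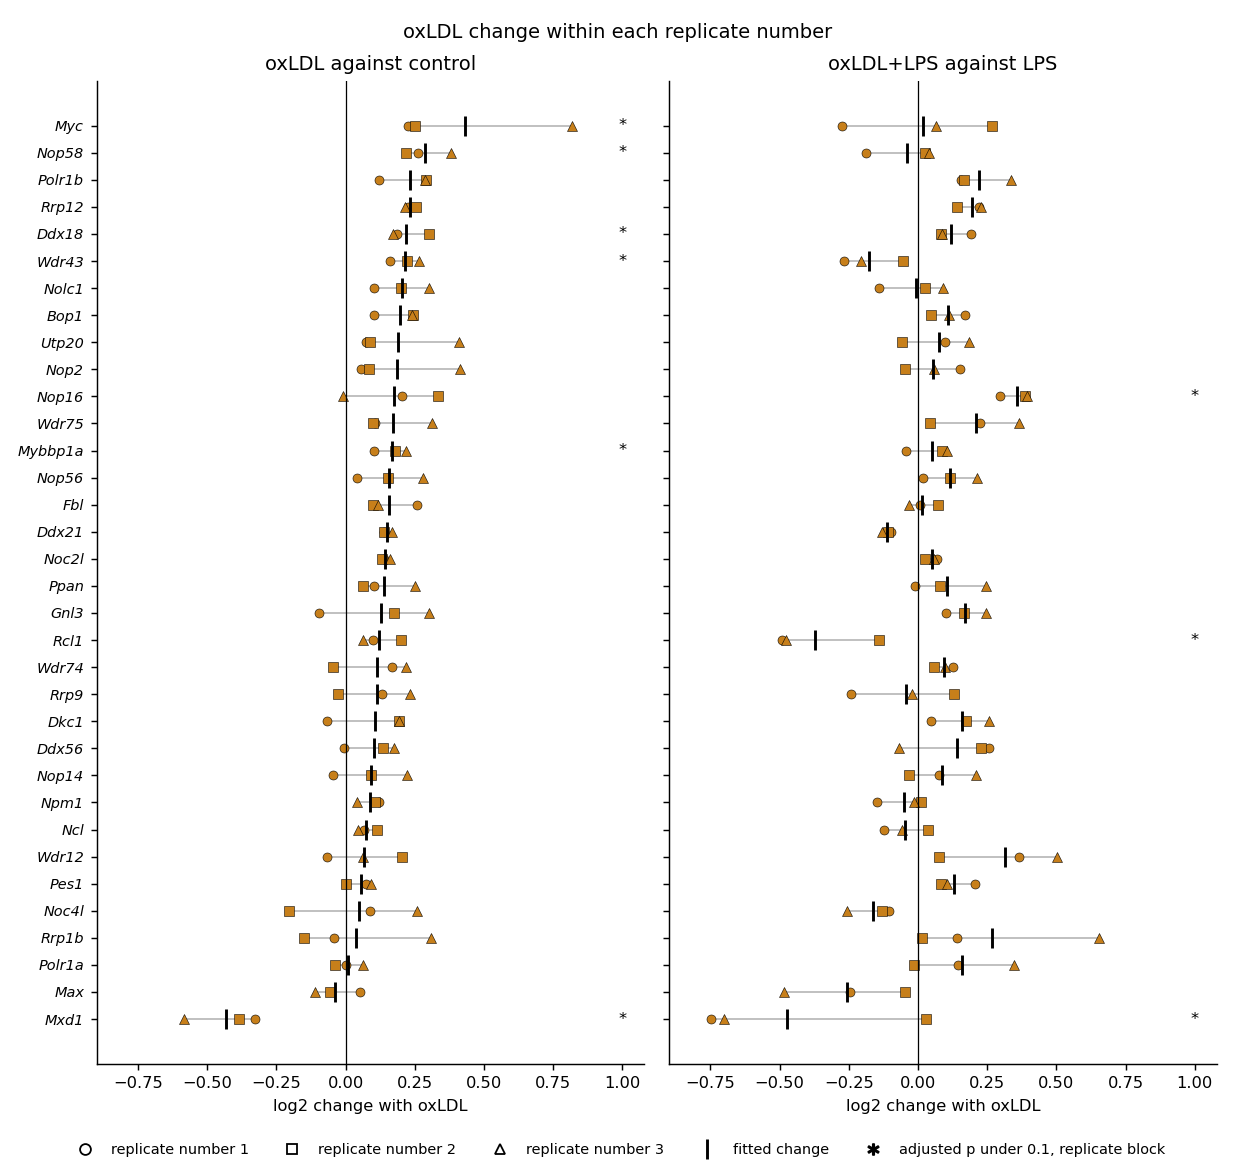
Log2 change by oxLDL of the 34 genes within each replicate number (symbols) and as fitted (bars), without LPS on the left and with LPS on the right, in the deposited scaling. Asterisks mark an adjusted p under 0.1 with the replicate block. The fitted change is above 0 for 32 genes on the left and 23 on the right, and equal library totals raise the median on the right from 0.08 to 0.17.

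With LPS present, oxLDL+LPS was compared with LPS. Without the block 0 of the 34 genes and 0% of the 12786 genes tested were called, and 890 genes had an unadjusted p under 0.05. With it Nop16 was called higher and Rcl1 and Mxd1 lower, beside 4.42% higher and 8.74% lower of all genes. Nop16, a large-subunit factor, had 205, 201 and 203 normalized counts with LPS and 252, 263 and 267 with oxLDL+LPS, a log2 change of 0.36 ± 0.10 (limma with the block, adjusted p = 0.066), and the groups did not overlap. Rcl1 was 0.37 lower (SE 0.10, adjusted p = 0.051) and Mxd1 0.47 lower (SE 0.14, adjusted p = 0.069), and with equal totals neither was called, Nop16 stayed called and Pes1 (0.22, adjusted p = 0.097) joined it. With the block and equal totals, 7.9% of all genes were called higher and 4.41% lower. Leaving out replicate number 1 or 3 ended each of the 3 calls (adjusted p = 0.254 to 0.480). The median over the 34 genes was 0.08, and it was 0.17 with equal totals. Within a replicate number oxLDL was higher in all 3 numbers for 14 genes (41.2%), beside 21.0% of all genes, and 6 genes (17.6%) had no overlap with oxLDL higher, beside 6.18% of all genes.

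The rest of the pathway was described with 7 further lists that hold none of the 34 genes, 252 of whose 253 genes were in the table. With LPS alone, 27 of 45 other processome genes (60%) and 25 of 44 other large-subunit genes (56.8%) were called higher. Called lower were 3 (6.7%) and 2 (4.5%), beside 31.4% higher and 30.3% lower of all genes tested. With equal totals these became 7 higher and 15 lower, and 10 higher and 17 lower, beside 17.0% and 55.3% of all genes. Fcf1 (log2 change 1.10 ± 0.09) and Utp11l (1.09 ± 0.12) led the first list and the helicase Ddx24 (1.77 ± 0.09) and Eif6 (1.76 ± 0.14), which keeps the subunits apart, the second. Nat10 (-0.73 ± 0.12), an RNA acetyltransferase, and Imp3 (-0.82 ± 0.13) fell among the former, and Ddx31 (-0.82 ± 0.11) and the SUMO protease Senp3 (-0.37 ± 0.08) among the latter. Other snoRNP genes were 6 higher and 1 lower of 12 (Nhp2l1 0.89 ± 0.13, Nufip1 0.83 ± 0.16, Pih1d1 -0.55 ± 0.13), against 2 higher and 5 lower with equal totals.

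RNA polymerase I genes were mostly not called. Of all genes tested 31.4% were higher and 30.3% lower (34.6% and 34.1% with the replicate block, 17.0% and 55.3% with equal totals). Of 19 RNA polymerase I genes 4 were higher and 1 lower (6 and 2 with the block, 1 and 13 with equal totals). Tcof1, which encodes the nucleolar protein treacle, had the smallest p of the 4, at 819, 915 and 798 normalized counts in control and 2933, 3882 and 3150 with LPS, a log2 change of 1.97 ± 0.12 (limma adjusted p = 9.1e-06). Rrn3, an initiation factor of this polymerase, rose by 0.38 ± 0.11, and Polr2e, a subunit shared by all 3 polymerases, changed by -0.41 ± 0.12. The cytosolic ribosomal proteins, the products that the pathway packs into subunits, depended on scaling too: 14 of 78 were higher and 1 lower as deposited (28 and 1 with the replicate block), and 0 higher and 51 lower with equal totals. As deposited that is 17.95% and 1.28% of them. Their median log2 change was 0.15 as deposited, above the 0.00 of all genes. Rpl24 (1.02 ± 0.33) was higher, but at low values: 46, 21 and 42 normalized counts in control and 58, 75 and 82 with LPS. Rpl10a (-0.24 ± 0.10), at 3188, 3220 and 3851 in control, was lower. After quantile normalization 1 of the 78 ribosomal proteins was higher and 56 lower, beside 24.9% and 37% of all genes. Their median of -0.44 was below the -0.14 of all genes.

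In the Myc network, 5 of 13 other genes were higher (38.5%) and 4 lower (30.8%), near the 31.4% and 30.3% of all genes tested. With equal totals they were 1 and 7, beside 17.0% and 55.3% of all genes. Mxd4 and Mxi1, which like Mxd1 encode Max-binding repressors, changed opposite to Mxd1. Mxd4 had 1059, 948 and 1067 normalized counts in control and 137, 89 and 69 with LPS, a log2 change of -3.42 ± 0.23 (limma adjusted p = 1.4e-05). Mxi1 had 1460, 2042 and 1336 in control and 595, 594 and 554 with LPS, a change of -1.45 ± 0.16 (adjusted p = 0.00017). Mlx (0.55 ± 0.12) and the ATPase Ruvbl1 (0.57 ± 0.13) were higher. Of 38 other Myc targets 13 were higher (34.2%) and 5 lower (13.2%), or 8 and 19 with equal totals, beside the same shares of all genes.
Ccnd2, a cyclin, had 79, 60 and 53 normalized counts in control, 5890, 7637 and 11990 with LPS, and 1657, 5346 and 3193 with oxLDL+LPS. Nampt, of NAD synthesis, rose by 2.62 ± 0.13 with LPS, while Cdk4 (-0.75 ± 0.12), the kinase partner of such cyclins, and the purine enzyme Paics (-0.56 ± 0.10) fell.

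**Figure D5:**
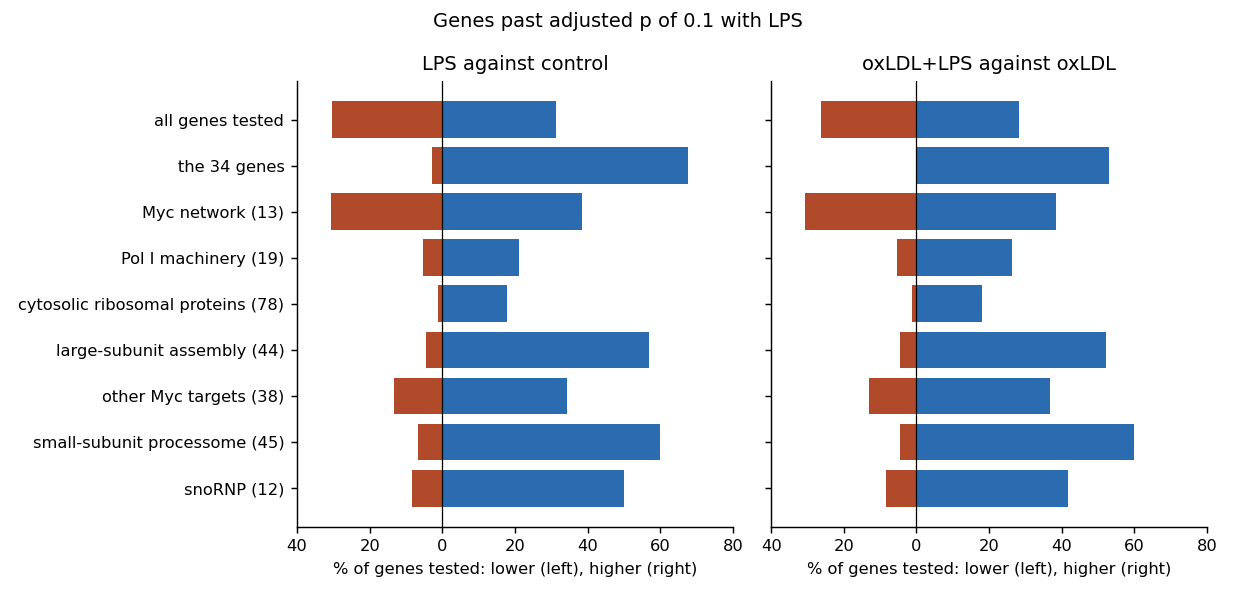
Share of genes called higher (right, blue) and lower (left, red) with LPS, as a percentage of the genes tested, for all genes, the 34 genes and the 7 further lists (number tested in brackets), in the deposited scaling. Higher calls make up 67.6% of the 34 genes and 31.4% of all genes on the left panel. With equal library totals lower calls outnumber higher ones in each of these lists and in the 34 genes. They do so among all genes too (17.0% higher and 55.3% lower without oxLDL, 15.9% and 51.3% with it).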

How the data were processed

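Directional poly(A) RNA-seq libraries of 4 groups of 3 were analysed. The authors trimmed reads with Trimmomatic 0.32, aligned them with STAR 2.5.1b to mm10 (GRCm38) and counted exonic reads with featureCounts over GENCODE vM4. The deposited normalized counts are a signal scaled by the authors with 1 factor per library and rounded, so no count model was run. They cover 43278 symbols, 18273 at 0 in each library. Of the symbols, 25 had turned into dates and were kept, at no more than 0.165% of the summed values of a library. Values were tested as log2(value + 1) with limma 3.58.1 (lmFit, eBayes with trend; R 4.3.3) on genes reaching 10 in at least 3 libraries of the fit, using the 6 libraries compared, or all 12 for the difference of responses. Because the pooled cells were divided among the groups, the pairing was checked: deviations from group means correlated at 0.23 to 0.66 between same-numbered libraries (18 pairs) and at -0.44 to 0.03 otherwise, so a replicate block was fitted too. Without the block, p-values set a change against the spread between the libraries of a group. With it, they set a change against how far that change varied between the pools. The script was tested on simulated data. Positions are from GENCODE vM21. The rule for values per library took Myc, Max, Mxd1 and, per comparison, up to 5 called genes a direction in order of p (from the block where the fit without it called no gene). Up to 2 called genes a direction of each further list were named, of which 1 is not reported here. Values per library of Pes1, Ncl, Tcof1, Mxd4, Mxi1, Ccnd2, Rpl24 and Rpl10a were added after they were seen. The genes and lists were chosen with earlier results of these data known. Alternatives were the block, all 12 libraries, a pseudocount of 10, no filter, equal library totals, quantile normalization and leaving out each library.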

Additional observations from a re-analysis of the deposited data

Results flagged for a closer look

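For 3 genes the oxLDL difference had opposite signs without and with LPS in each replicate number in the deposited scaling. Wdr43 was higher with oxLDL in all 3 numbers without LPS and lower in all 3 with LPS, a difference between the 2 log2 changes of -0.39 (95% confidence interval -0.76 to -0.03). Rcl1 did the same, with a difference of -0.49 (-0.98 to -0.01), and so did Ddx21, with a difference of -0.26 (-0.58 to 0.06). The test of this difference over all genes called none of them (limma adjusted p = 1.00 for each, and 0.67 with the replicate block), and with equal library totals the difference was -0.30 for Wdr43, -0.40 for Rcl1 and -0.17 for Ddx21. With equal totals the opposite signs in all 3 numbers held for Rcl1, but with LPS the oxLDL change became 0.006 in number 2 for Wdr43 and 0.045 in number 3 for Ddx21.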

How the results depend on the processing

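The direction of the LPS results depended on library scaling. With equal library totals, the genes called higher and lower numbered 9 and 10 without oxLDL (10 and 12 with the replicate block) and 7 and 9 with oxLDL (9 and 11 with the block), and the medians were -0.078 and -0.10, which the block does not alter. Quantile normalization gave 17 higher and 3 lower with a median of 0.21 without oxLDL, and 11 higher and 3 lower with oxLDL, beside 24.9% higher and 37% lower, and 22.1% and 33.2%, of all genes. In the difference of the 2 LPS responses, the median of -0.09 became 0.0046 with equal totals, with or without the block. The median oxLDL change with LPS became 0.17 with equal totals, again with or without the block.

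Single genes that turned negative with equal totals, with or without the block, were, for LPS without oxLDL, Fbl (-0.15), Nolc1 (-0.092), Wdr75 (-0.24), Nop2 (-0.062), Ddx18 (-0.081), Ddx56 (-0.15), Ncl (-0.13) and Npm1 (-0.076), and for LPS with oxLDL, Wdr75 (-0.11), Nop2 (-0.10), Ddx18 (-0.087), Ddx56 (-0.021), Ncl (-0.15) and Npm1 (-0.12). Quantile normalization turned Ncl (-0.28 and -0.28) and Npm1 (-0.23 and -0.25). The cause was not tested.

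The replicate block gave 3 genes lower in place of 1 with LPS and 1 in place of 0 with oxLDL and LPS, 5 higher and 1 lower with oxLDL alone (5 and 1 with equal totals too) and 1 higher and 2 lower with oxLDL in the presence of LPS (2 higher with equal totals), and it changed no other count of calls by over 1.5 times. With the block and equal totals, oxLDL alone had 1.86% of all genes higher and 3.7% lower. In the presence of LPS these shares were 7.9% and 4.41%. One fit of all 12 libraries gave 3 lower with LPS, and with the block 6 lower without and 1 lower with oxLDL. A pseudocount of 10 kept each call, all 12 libraries ended that of Ncl without oxLDL, and using no filter ended those of Myc, Wdr75 and Ncl without oxLDL and Wdr75 with oxLDL.

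Leaving out 1 library at a time, LPS without oxLDL had 18 to 21 genes higher, 0 to 3 lower and a median of 0.32 to 0.49, and with the block and 1 replicate number left out 21 to 24 higher, 0 to 3 lower (2 without number 1) and 0.34 to 0.46. LPS with oxLDL had 16 to 19 higher, 0 lower and 0.27 to 0.36, and with the block 16 to 23, 0 to 1 and 0.21 to 0.34. oxLDL alone had 0 calls and 0.12 to 0.17, and with the block 0 to 10 higher (10 without number 3), 0 to 1 lower and 0.09 to 0.16. oxLDL with LPS had 0 calls and 0.0056 to 0.14, and with the block 0 to 4 higher, 0 to 4 lower (both without number 2) and 0.044 to 0.11. The difference of responses had 0 calls and -0.13 to -0.025, and with the block 0 calls and -0.08 to -0.06. Of the 24 and 18 genes called in the 2 LPS responses, 18 and 16 were called whichever library was left out. The matching shares of all genes with a library or replicate number left out were not examined. The counts of calls in this paragraph are therefore not read as a trait of these genes. Counts of 16.7 to 26.2 M reads cover these genes at 139 normalized counts or more.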
